A study of Rattus with 12 samples.

Results

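The sodium-calcium exchangers and calcium pumps of the plasma membrane were taken as the 7 gene symbols Slc8a1, Slc8a2, Slc8a3, Atp2b1, Atp2b2, Atp2b3 and Atp2b4. The symbols were chosen by name, with earlier results of these data known, and all 7 are among the 17337 genes of the count table. Each also passed the filter on low counts, which kept 12271 genes. RNA was sequenced from 12 co-cultures of primary Sprague Dawley rat cortical neurons, astrocytes and oligodendrocyte precursor cells (OPCs), dosed at 24 to 26 days in vitro. Fentanyl, a synthetic agonist of the mu-opioid receptor, was present for 4 days at 0.01 μM (low dose, cultures B, H, N and Q) or 10 μM (high dose, cultures C, I, O and R). The untreated cultures A, G, M and P received medium without fentanyl. All cultures were mixtures of purchased primary cells grown on plates, so each value is an average over cell types and none comes from an animal.

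Neurons and glia keep cytosolic calcium low by moving it out across the plasma membrane. The exchangers of the Slc8 family (NCX proteins) use the sodium gradient to carry calcium out, and can run in reverse when the membrane is depolarized or sodium rises. The Atp2b pumps (PMCA proteins) spend ATP, bind calcium with high affinity and are activated by calmodulin, and they form complexes with neuroplastin or basigin. In brain, NCX2 and PMCA2 and PMCA3 are known mainly from neurons, whereas NCX1 and PMCA1 are widely expressed.

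Total counts per culture ranged from 12059872 to 24813893, and levels are given as CPM, counts relative to the library size after TMM scaling in edgeR. Transcript lengths were not used, so levels were compared between cultures and not between genes. The letters run consecutively over the doses in 4 sets, ABC, GHI, MNO and PQR, which the sources do not describe as a batch or a pairing. Untreated culture G stood apart, with 324 CPM summed over 12 neuron markers against 2620 to 3805 CPM in the other 11 cultures. All 12 neuron markers had counts in G, the lowest being Rbfox3 at 20 counts. In G the endothelial gene Cdh5 was at 28.5 CPM, against at most 0.474 CPM elsewhere. The fibroblast gene Lum was at 34.8 CPM there, against at most 0.413 CPM. Both genes failed the filter on low counts. Of the other endothelial and fibroblast or mural cell markers, Kdr, Flt1, Dcn, Col3a1 and Pdgfrb were also highest in G. Pecam1, Cldn5, Col1a1, Col1a2 and Acta2 were higher in another culture, and Tek and Mgp were lowest in G, at 0.259 and 220 CPM. Comparisons with untreated cultures are therefore given with and without G. The markers of neurons, astrocytes (9 of 10 kept by the filter), OPCs (7 of 7) and oligodendrocytes (8 of 8) were detected in every culture. In bulk RNA, fewer cells of a type and less RNA per cell cannot be told apart.

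Of the 7 genes, Slc8a2 (Gene ID 140447, NCX2), an exchanger with a known role in clearing calcium from synapses, was the one whose cultures separated between 2 doses, the low and the high. The untreated cultures A, G, M and P held 161, 4.28, 207 and 95.8 CPM of Slc8a2. Low dose cultures B, H, N and Q held 141, 142, 119 and 83.7 CPM, and high dose cultures C, I, O and R held 177, 203, 219.6 and 174 CPM. Each high dose culture thus lay above each low dose culture, whereas the untreated cultures spread over both and G lay far below all others. The 3 doses in rising order had means of 117 ± 87.7, 121 ± 27.4 and 193 ± 21.7 CPM (SD, n = 4), and the untreated mean was 154 ± 55.6 CPM (n = 3) without G.

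The high dose mean of Slc8a2 was 1.59-fold the low dose mean, a difference of 0.69 on the log2(CPM + 1) scale. This gave p = 0.0286 in an exact two-sided permutation test over the 70 arrangements of 4 against 4 cultures, which is the smallest p these numbers allow, and the p adjusted over all 12271 genes was 1.0. Of the 7 genes, only Slc8a2 showed no overlap between the cultures of the 2 doses, where 1.19% of all genes tested did in either direction and 0.668% with the high dose above. Within the letter sets the high dose exceeded the low dose by 0.32 in ABC, 0.51 in GHI, 0.88 in MNO and 1.04 in PQR, and 11.7% of all genes tested were higher in all 4 sets. The fitted log2 fold change was 0.69 (SE 0.50, adjusted p = 1.0 in the quasi-likelihood test of edgeR with 1 factor of unwanted variation). The fit takes the spread of each gene from all 12 cultures, so G enters this SE. Without G the value was 0.68 (SE 0.19), and with only the low and high dose cultures 0.68 (SE 0.14), neither of them called. Over 24 alternative fits the fitted value lay between 0.41 and 1.02, above 0 in all 24. It was called by 1 of them, that with 4 factors, at 0.70 (SE 0.13, edgeR adjusted p = 0.0312), where 113 genes or 0.921% of those tested were called.

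Of the 12 neuron markers, 9 had a higher mean and 3 a lower mean in high dose cultures than in low dose cultures. The marker whose cultures did not overlap, as was so for 1.19% of all genes tested, went the other way from Slc8a2. It was Gap43, a growth cone protein, at 89.6, 144, 97.3 and 102 CPM in low dose B, H, N and Q. In high dose C, I, O and R it was at 73.1, 84.9, 88.1 and 87.4 CPM. Untreated G, low in neuron markers as a sum, held 64.4 CPM of Gap43, against 73.1 to 144 CPM in the other cultures. The neuron score, averaged over the 12 markers as log2(CPM + 1), was 7.54 ± 0.16 (SD, n = 4) at the low dose and 7.71 ± 0.10 at the high dose. It differed by 0.16 (exact permutation p = 0.171) and by 0.02, 0.16, 0.26 and 0.21 within the 4 sets in the order above. The summed level of the 12 markers ranged from 2620 to 3511 CPM at the low dose and from 3079 to 3805 CPM at the high dose. With this score subtracted in each culture, the difference for Slc8a2 was 0.53 in the mean and 0.30, 0.35, 0.62 and 0.84 within the sets, a measure chosen after the data were seen. Subtraction does not remove the correlation of Slc8a2 with the score, and the part of neuron content in the difference was not tested.

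Against the untreated cultures, Slc8a2 showed no separation at either dose. At the low dose the fitted log2 fold change was 0.15 (SE 0.50, edgeR adjusted p = 1.0), and without G it was -0.37. Within the sets, the low dose lay below the untreated culture by 0.18 in ABC, 0.79 in MNO and 0.19 in PQR on the log2(CPM + 1) scale and above it by 4.76 in GHI. At the high dose the fitted log2 fold change was 0.84 (SE 0.51, edgeR adjusted p = 1.0), and without G it was 0.31. Here the treated culture was the higher one in all 4 sets, by 0.14, 5.27, 0.09 and 0.85, which 5.22% of all genes tested also were. Without G the difference between high dose and untreated means was 0.39 on the log2(CPM + 1) scale (exact permutation p = 0.2).

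**Figure D1:**
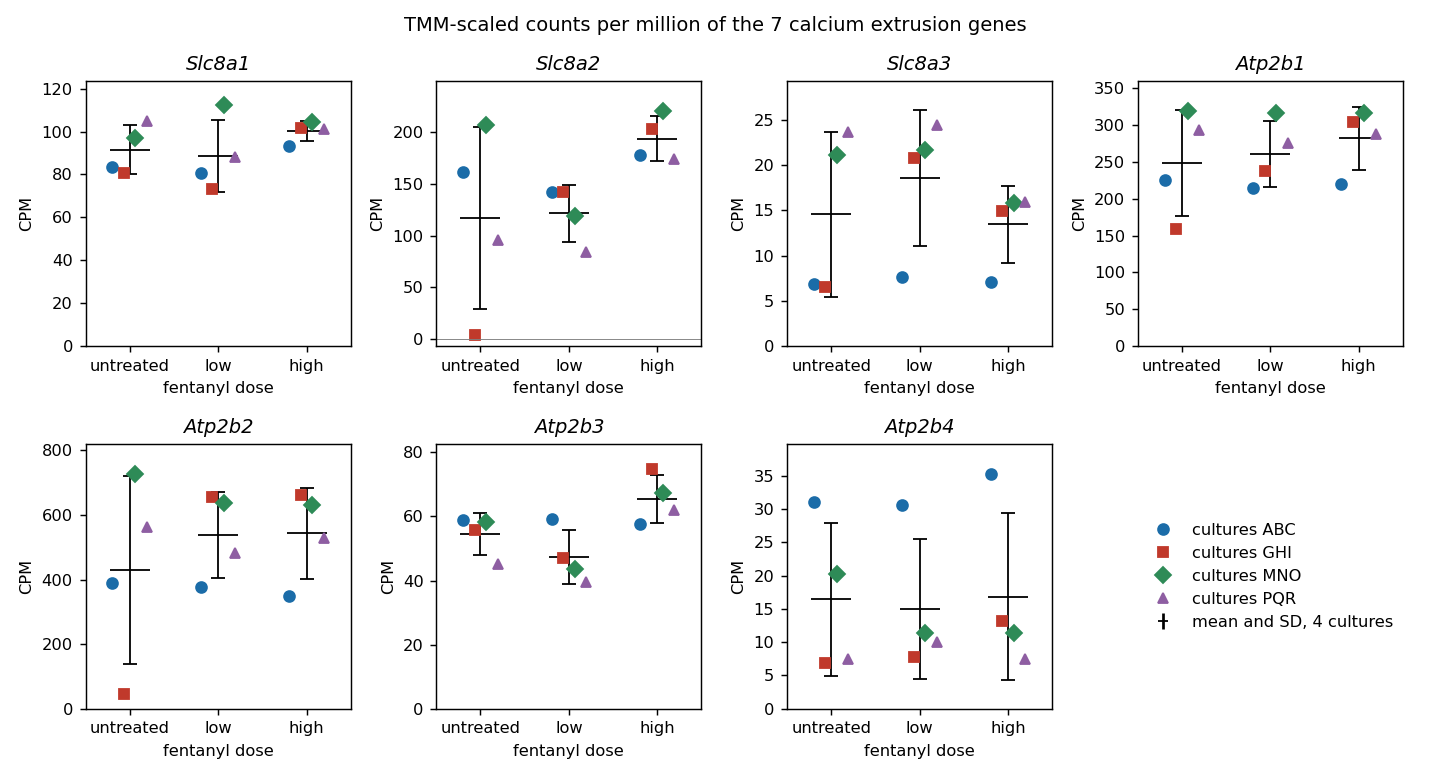
TMM-scaled CPM (y axis of each panel, linear) of the 7 genes by fentanyl dose, 1 point per culture with the shape and colour of its letter set, and bars for the mean and SD of 4 cultures. For Slc8a2 the 4 high dose points, from 174 to 219.6 CPM, lie above the 4 low dose points, from 83.7 to 142 CPM, and untreated culture G lies at 4.28 CPM.

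Slc8a1 (Gene ID 29715, NCX1), the exchanger of heart that is also broadly expressed in brain, was the steadiest of the family. Its levels were 83.3, 80.7, 97.2 and 105 CPM in untreated cultures A, G, M and P. They were 80.7, 73.4, 112 and 88.2 CPM in low dose B, H, N and Q and 93.4, 102, 105 and 101 CPM in high dose C, I, O and R. The 3 doses overlapped, the 12 cultures differed by at most 1.53-fold, and G was not set apart. Means were 91.5 ± 11.5, 88.7 ± 16.9 and 100.2 ± 4.81 CPM (SD, n = 4) in untreated, low dose and high dose cultures. Its log2 fold change was -0.05 (SE 0.14) in low dose vs. untreated, 0.12 (SE 0.14) for the high dose against untreated and 0.18 (SE 0.14) in high vs. low dose, each with an edgeR adjusted p of 1.0. The exact permutation p was 0.229 in high vs. low dose, where 3 of the 4 sets were higher at the high dose.

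For Slc8a3 (Gene ID 140448, NCX3), an exchanger of brain and skeletal muscle, untreated cultures held 6.90, 6.55, 21.1 and 23.7 CPM in the order A, G, M and P. Low dose cultures B, H, N and Q held 7.62, 20.8, 21.7 and 24.4 CPM, and high dose cultures C, I, O and R held 7.05, 14.99, 15.8 and 16.0 CPM. A, B, C and G were the lowest of the 12 cultures, and outside them the high dose cultures lay below all others. Those left out were picked by these same levels, and with all 12 cultures the doses overlapped. The means of 14.6 ± 9.12, 18.6 ± 7.49 and 13.4 ± 4.29 CPM (SD, n = 4) differed by less than the spread between cultures. In high vs. low dose the log2 fold change was -0.47 (SE 0.48, edgeR adjusted p = 1.0). The high dose was lower in all 4 sets, by 0.10, 0.44, 0.43 and 0.58 on the log2(CPM + 1) scale (exact permutation p = 0.4), as were 11.1% of all genes tested. With 4 factors the adjusted p of Slc8a3 was 0.0478 at a log2 fold change of -0.42, which is under the 0.5 required for a call. In low dose vs. untreated it was higher in all 4 sets, by 0.12, 1.53, 0.04 and 0.04, a pattern of 4.06% of all genes tested.

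Among the pumps, Atp2b3 (Gene ID 29599, PMCA3), a fast pump known from neurons, differed most between the doses relative to its spread. Cultures A, G, M and P, without fentanyl, held 59.0, 55.8, 58.2 and 45.1 CPM. At the low dose, B, H, N and Q held 59.3, 47.1, 43.6 and 39.4 CPM, and at the high dose C, I, O and R held 57.5, 74.8, 67.2 and 62.0 CPM. Only low dose B reached into the range of the high dose cultures, where it lay above C, and G was not low. In rising order of dose the means were 54.5 ± 6.45, 47.3 ± 8.54 and 65.4 ± 7.41 CPM (SD, n = 4). The high dose mean was 1.38-fold the low dose mean, with a log2 fold change of 0.46 (SE 0.15, edgeR adjusted p = 1.0, unadjusted p = 0.00995). The difference of 0.47 on the log2(CPM + 1) scale had an exact permutation p of 0.0571, which is not the smallest possible. Within the sets it was -0.04 in ABC and 0.66, 0.61 and 0.64 in GHI, MNO and PQR.

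The fitted log2 fold change of Atp2b3 in high vs. low dose lay between 0.39 and 0.59 over the 24 alternatives, and its adjusted p came down to 0.0557 with 4 factors. With the neuron score subtracted the difference was 0.30. Against untreated cultures it was -0.19 (SE 0.15) at the low dose and 0.27 (SE 0.15) at the high dose, each with an edgeR adjusted p of 1.0. These 2 values kept their direction in all 24 alternatives, those without G included.

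Atp2b1 (Gene ID 29598, PMCA1), the widely expressed pump, held 226, 159, 319 and 293 CPM in untreated A, G, M and P. At the low dose it held 215, 238, 317 and 276 CPM in B, H, N and Q, and at the high dose 220.2, 304, 316 and 288 CPM in C, I, O and R. The doses overlapped fully, G was the lowest culture, and A, B and C were low at each dose. Group means were 249 ± 71.9, 261 ± 44.9 and 282 ± 42.8 CPM (SD, n = 4). The log2 fold change was 0.02 (SE 0.20), 0.13 (SE 0.20) and 0.11 (SE 0.20) for the low dose against untreated, the high dose against untreated and the high against the low dose, with an edgeR adjusted p of 1.0 in each.

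Atp2b2 (Gene ID 24215, PMCA2), a pump of neurons and of hair cells with high basal activity, had untreated levels of 389, 45.5, 726 and 563 CPM in A, G, M and P. The low dose cultures B, H, N and Q held 376, 656, 636 and 484 CPM and the high dose cultures C, I, O and R 349.9, 663, 631 and 530.4 CPM. Low and high dose cultures of one set were close to each other, and G lay far below every other culture. The means were 431 ± 291, 538 ± 133 and 544 ± 141 CPM (SD, n = 4), and 559 ± 168 CPM (n = 3) in untreated cultures without G. High vs. low dose gave a log2 fold change of 0.01 (SE 0.45, edgeR adjusted p = 1.0), with differences within the sets of -0.10, 0.01, -0.01 and 0.13. Against untreated cultures it was 0.36 (SE 0.46) at the low dose and 0.37 (SE 0.46) at the high dose. Without G these values were -0.03 and -0.01.

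Atp2b4 (Gene ID 29600, PMCA4), a pump of many tissues including glia and smooth muscle, was sorted by letter set and not by dose. Its level was 31.0, 6.94, 20.3 and 7.48 CPM in untreated A, G, M and P. It was 30.6, 7.85, 11.4 and 10.0 CPM in low dose B, H, N and Q and 35.3, 13.2, 11.4 and 7.48 CPM in high dose C, I, O and R. Cultures A, B and C were the highest of their dose each time, with a mean of 32.3 ± 2.604 CPM (SD, n = 3) against set means of 8.34 to 14.4 CPM elsewhere. By dose the means were 16.4 ± 11.5, 14.97 ± 10.5 and 16.9 ± 12.5 CPM (SD, n = 4). The log2 fold change was -0.32 (SE 0.62), -0.12 (SE 0.61) and 0.20 (SE 0.59) in the 3 comparisons in the order above, with an edgeR adjusted p of 1.0.

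Over the 7 genes, then, 0 were called for the low dose against untreated, 0 for the high dose against untreated and 0 between the doses, and percent called among all 12271 genes was also 0 in each (edgeR quasi-likelihood test, thresholds of 0.05 on the adjusted p and 0.5 on the absolute log2 fold change). At an unadjusted p under 0.05, the 7 genes gave 0, 0 and 1 (Atp2b3), against 0.742%, 1.19% and 1.17% of all genes. DESeq2 called 0, 3 and 1 of all genes, and the likelihood ratio test of edgeR 0, 2 and 0, none of them an exchanger or a pump. Cultures without overlap were seen for 0, 0 and 1 of the 7 (Slc8a2), against 0.407%, 0.685% and 1.19% of all genes tested. The comparisons share cultures, so their values are not independent of each other.

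Leaving out G changed the comparisons with untreated cultures most for Slc8a2 and Atp2b2, as given above, and less for the others. On the log2(CPM + 1) scale, low dose vs. untreated then gave -0.11 for Slc8a1, 0.15 for Slc8a3, -0.10 for Atp2b1, -0.19 for Atp2b3 and -0.36 for Atp2b4. In the same order, high dose vs. untreated gave 0.08, -0.23, 0.02, 0.27 and -0.23. The exact permutation p without G was 0.114 or higher for all 7 genes in both comparisons, where 0.0286 is the smallest possible.

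The median log2 fold change of the 3 exchangers was 0.15, 0.12 and 0.18 for the low dose against untreated, the high dose against untreated and the high against the low dose. For the 4 pumps it was -0.09, 0.20 and 0.15, and for all genes tested 0.01, 0.00 and -0.01. In high vs. low dose 2 of 3 exchangers and 4 of 4 pumps had a fitted value above 0, of which that of Atp2b2 was 0.01. For Atp2b2 and Atp2b4 the sign there changed in some fits with 1 culture left out, with ranges of -0.21 to 0.34 and -0.42 to 0.76. The plot of differences by gene places the values within the letter sets beside each fitted value.

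**Figure D2:**
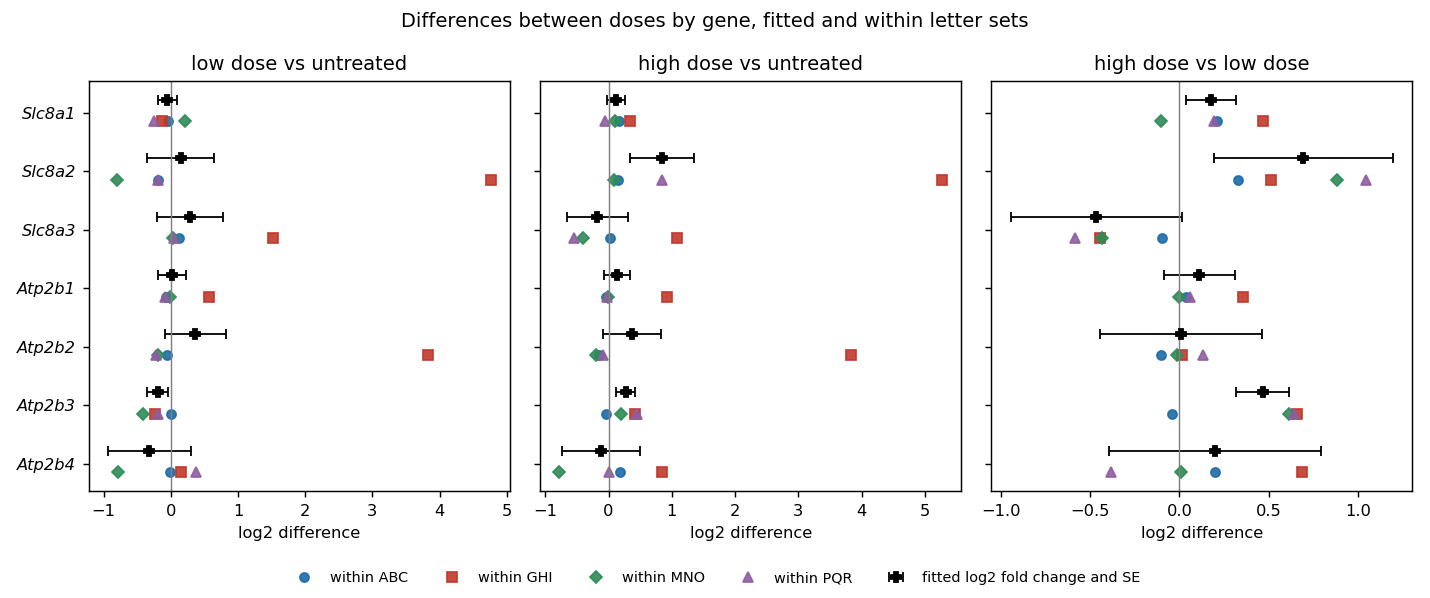
Differences between doses for the 7 genes (rows), with the log2 difference on the x axis, whose range is not the same in the 3 panels. Black crosses with bars are the fitted log2 fold change and its SE, and coloured points are differences in log2(CPM + 1) within each letter set. In high vs. low dose all 4 points of Slc8a2 lie above 0, from 0.32 to 1.04, and all 4 of Slc8a3 below 0, and in the other panels the points of GHI lie far to the right for Slc8a2 and Atp2b2.

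The 7 genes were not equally low in untreated culture G. Slc8a2 stood at 2.66% of the median of the other 11 cultures, from 66 counts, and Atp2b2 at 8.09%. Slc8a3 stood at 41.0%, Atp2b1 at 55.2% and Atp2b4 at 60.8%, each the lowest of the 12 cultures although close to A for Slc8a3 and to P and R for Atp2b4. Slc8a1, at 83.0%, and Atp2b3, at 95.8%, were within the range of the other cultures. Atp2b3 was thus near its usual level in the culture with the fewest neuron transcripts, in contrast to Slc8a2. Which cells of G held these transcripts was not tested.

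These levels changed the make-up of both families in G. Slc8a1 gave 88.2% of the exchanger counts in G and between 29.9% and 46.7% in the other cultures, while Slc8a2 gave 4.68% in G and 42.6% to 64.6% elsewhere. Among the pumps, Atp2b1 gave 59.5% of the counts in G and 25.1% to 34.1% elsewhere, and Atp2b3 20.9% in G and 4.33% to 8.71% elsewhere. Outside G, Atp2b4 gave 4.40%, 4.50% and 5.33% of the pump counts in A, B and C and 0.824% to 1.81% in the other 8 cultures. The share of Slc8a3 among the exchangers was 2.75%, 3.32% and 2.54% in A, B and C and 4.64% to 12.4% in those 8. The summed level of the 3 exchangers was 250.9, 91.5, 325 and 224 CPM in untreated A, G, M and P, 196 to 253 CPM in the low dose cultures and 278 to 340.1 CPM in the high dose cultures. The untreated sums thus lay on both sides of the gap between the doses, which was mostly that of Slc8a2. That of the 4 pumps was 681 to 1008 CPM and 663 to 1054 CPM, with full overlap. Shares of counts are not corrected for transcript length and were read only between cultures.

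**Figure D3:**
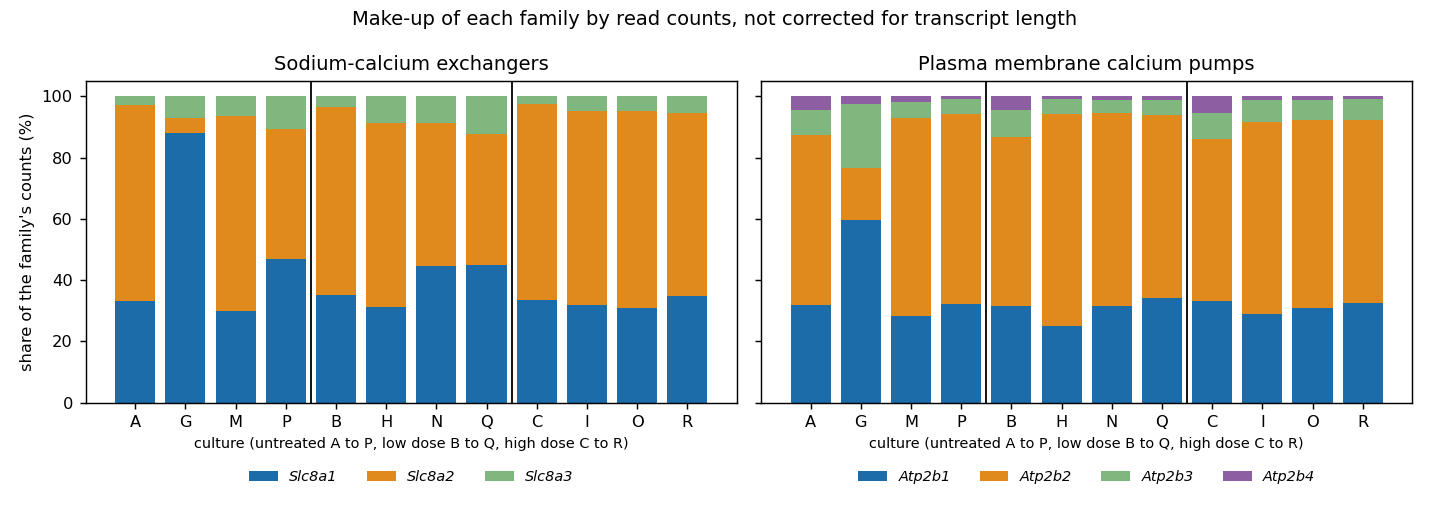
Share of each family's read counts (y axis, percent, starting at 0) held by each gene in each of the 12 cultures (x axis), with exchangers on the left and pumps on the right. In culture G the largest share is that of Slc8a1, at 88.2%, and of Atp2b1, at 59.5%, whereas Atp2b2 holds 52.8% to 69.2% of the pump counts in the other 11.

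For most of these genes the letter set went with more of the variation than the dose. Over the 9 cultures outside GHI, the letter sets held 98.6% of the variance of log2(CPM + 1) for Atp2b1, 94.5% for Atp2b2, 91.8% for Slc8a3 and 90.8% for Atp2b4. Their dose shares were 1.03%, 4.00%, 5.73% and 1.09%. Slc8a1 was at 61.4% for the sets and 7.78% for the dose. Slc8a2 and Atp2b3 had the reverse order, with 37.8% and 23.8% for the sets and 46.0% and 45.2% for the dose, where the medians over all genes tested were 76.1% and 6.88%. With all 12 cultures the order of Slc8a2 was not reversed, at 23.3% for the sets and 21.6% for the dose, while Atp2b3 was at 19.8% and 55.5%. There, 4 sets stand against 3 doses, and more groups take up more variance by chance, so the order is not a like comparison. The share of the sets was then 22.5% for Atp2b2, 57.2% for Atp2b1, 70.9% for Slc8a3, 87.3% for Atp2b4 and 50.3% for Slc8a1, and their dose shares were 14.999%, 8.81%, 8.40%, 0.446% and 19.9%. The 9 cultures were chosen after the data were seen, and these shares carry no test.

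Cultures A, B and C, which were low in Slc8a3, Atp2b1 and Atp2b2 and high in Atp2b4, also differed in glial markers. Their OPC score (7 of 7 markers) was 5.08 to 5.59, against 6.40 to 7.17 in the other cultures, and their oligodendrocyte score (8 of 8) was 6.70 to 7.37, against 7.70 to 9.86. By dose, the summed OPC markers ranged from 318 to 1350.0 CPM without fentanyl, from 391 to 1350.5 CPM at the low dose and from 399.7 to 1350.3 CPM at the high dose, with no OPC or oligodendrocyte marker at 0 in any culture. The part of these markers in the levels of the pumps was not tested.

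**Figure D4:**
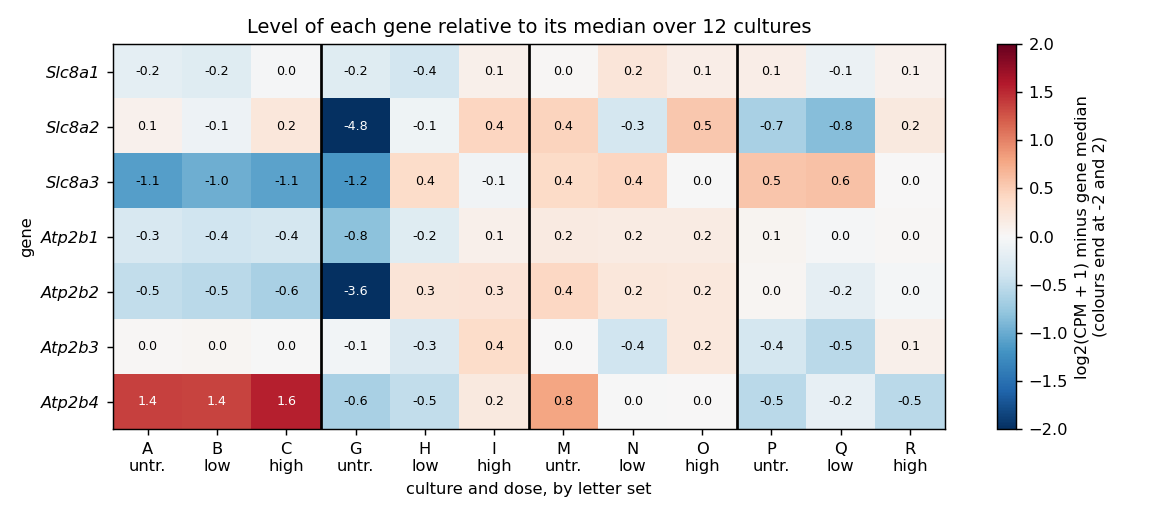
Level of each of the 7 genes (rows) in each culture (columns, grouped by letter set with the dose under the letter) as log2(CPM + 1) minus the median of the gene over 12 cultures, with colours ending at -2 and 2. A, B and C are low in Slc8a3 and high in Atp2b4 at every dose, and G is dark blue for Slc8a2 and Atp2b2.

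The genes fell into patterns that crossed the 2 families. Over the 11 cultures other than G, Slc8a2 and Atp2b3 had a Pearson correlation of log2(CPM + 1) of 0.89 (Spearman 0.75), and with G included the Pearson value was 0.24. Atp2b1 and Atp2b2 had 0.82 (0.81), Slc8a3 and Atp2b2 0.80 (0.43), and Slc8a1 and Atp2b1 0.79 (0.75). Slc8a3 and Atp2b4 ran opposite to each other, at -0.84 (-0.75). Slc8a2 and Atp2b2, both nearly lost from G, had 0.17 over the 11 cultures and 0.92 with G. These are descriptions over cultures that share letter sets and doses, and no p was computed.

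The neuron score had Pearson values of 0.84 with Slc8a2 and 0.86 with Atp2b3 over the 11 cultures (Spearman 0.60 and 0.70), and 0.55 with Atp2b4 (0.74). With Slc8a3 the value was -0.66 (Spearman -0.92), the strongest of the 7 by rank. For Atp2b1, Atp2b2 and Slc8a1 the Pearson values were -0.34, -0.14 and -0.29. The OPC score gave Pearson values of 0.89 with Slc8a3, 0.76 with Atp2b1, 0.72 with Atp2b2 and -0.88 with Atp2b4. The Spearman values were weaker, at 0.68, 0.49, 0.38 and -0.75 in the same order. The oligodendrocyte score gave 0.86 with Slc8a3 (Spearman 0.55), 0.87 with Atp2b2 (0.80), 0.67 with Atp2b1 (0.47) and -0.79 with Atp2b4 (-0.55). The astrocyte score gave -0.66 with Slc8a2 (Spearman -0.50), -0.56 with Atp2b3 (-0.52) and -0.04 with Slc8a1 (-0.17). Scores built in the same way for microglia and endothelial cells gave 0.55 (0.45) and 0.58 (0.51) with Slc8a2. With Atp2b3 they gave 0.36 (0.19) and 0.53 (0.55). The endothelial score rests on 3 markers that summed to at most 9.93 CPM in these 11 cultures.

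Among all genes tested, those most like Slc8a2 over the 11 cultures were Epha4 (Pearson 0.93, Spearman 0.86), an ephrin receptor, Clstn1 (0.92, 0.87), a calsyntenin of synaptic membranes, and Pnmal2 (0.92, 0.89). Most like Atp2b3 were Kif5a (0.92, 0.85), a neuronal kinesin, Rgs7bp (0.92, 0.75), a binding partner of RGS proteins, and again Pnmal2 (0.92, 0.81). With G the Pearson value of Slc8a2 with Epha4 was 0.99, and that of Atp2b3 with Kif5a was 0.11. Slc8a1 was most like Abca1 (0.96), Atm (0.95) and Usp24 (0.94), and Slc8a3 most like Sptssb (0.99), Mical2 (0.99) and Osbp2 (0.98). For the other pumps these genes were Dcbld2 (0.98), Itga4 (0.97) and Gabrb2 (0.96) for Atp2b1, Lamp5 (0.98), Plcb4 (0.98) and Slc25a25 (0.98) for Atp2b2, and Tekt2 (0.97), Cxcr4 (0.96) and Fam210b (0.96) for Atp2b4. Each was picked as the highest over all 12271 genes and was not tested.

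Genes that work with the exchangers and pumps were read from 8 lists. Of their tested genes, 0 were called in any comparison and 0 lay without overlap between doses. Of all 12271 genes, 0 were called as well. Those without overlap made up 0.407% between untreated and low dose cultures, 0.685% between untreated and high, and 1.19% between low and high. At such shares, a count of 0 in lists this short cannot set them apart from all genes. Of the 5 subunits and activators of the pumps, 4 had a fitted value above 0 in high vs. low dose, with a median of 0.05.

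The 6 potassium-dependent and mitochondrial sodium-calcium exchangers had a median of -0.02 in high vs. low dose, with 3 above 0. Slc24a2, the highest of them and an exchanger that carries potassium with calcium in neurons, held 196, 10.6, 469.7 and 403 CPM in untreated A, G, M and P. It held 204, 241, 368 and 340.3 CPM in low dose B, H, N and Q and 222, 426, 379.5 and 379 CPM in high dose C, I, O and R. The doses overlapped, G was far below the rest, and A, B and C were the lowest of the other cultures. High vs. low dose gave 0.23 (SE 0.57, edgeR adjusted p = 1.0), and the high dose was higher in all 4 sets, by 0.12, 0.82, 0.04 and 0.16, as were 11.7% of all genes tested. In the same list Slc24a3, another potassium-dependent exchanger and named after its values were seen, was lower at the high dose in all 4 sets, with differences of -0.43, -0.19, -0.10 and -0.14, as were 11.1% of all genes tested.

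The sodium pump keeps the gradient that the exchangers run on. Of its 7 subunit genes, 0 had a fitted value above 0 in high vs. low dose and the median was -0.16.

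The intracellular release channels, which let calcium out of stores, lay on the other side. All 4 tested genes had a fitted value above 0 in high vs. low dose, with a median of 0.27 and a range from 0.09 to 0.51, where the median of all genes was -0.01. Itpr1, the highest, was at 93.1 ± 5.19, 88.5 ± 17.1 and 94.0 ± 15.1 CPM (SD, n = 4) in untreated, low dose and high dose cultures. The other 3, Itpr2, Itpr3 and Ryr2, named after their values were seen, were higher at the high dose in all 4 sets. So were 11.7% of all genes tested. The fitted values were 0.34 (SE 0.49) for Itpr2 and 0.20 (SE 0.46) for Itpr3, neither called. For Ryr2 the untreated cultures A, G, M and P held 44.9, 2.21, 94.6 and 44.6 CPM, with M the highest of the 12 cultures. The low dose cultures B, H, N and Q held 51.6, 42.4, 55.7 and 36.0 CPM of Ryr2. The high dose cultures C, I, O and R held 59.7, 75.0, 78.3 and 52.5 CPM. In high vs. low dose the log2 fold change of Ryr2 was 0.51 (SE 0.54, edgeR adjusted p = 1.0), and the cultures of these 2 doses overlapped only where N lay above R.

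Store and buffer genes showed small medians. For the pumps of the endoplasmic reticulum and Golgi (4 of 5 tested) the median in high vs. low dose was 0.10, with 2 above 0, and Atp2a2, the highest, was at 881 ± 222, 903 ± 139 and 901 ± 170 CPM (SD, n = 4). Mitochondrial uptake genes (5 of 7 tested) had a median of -0.01 with 2 above 0. Store-operated entry genes (5 of 5) had a median of 0.06 with 4 above 0, and Stim1, the calcium sensor of the store, was at 107 ± 16.9, 99.5 ± 6.87 and 109 ± 5.5 CPM. Its high dose cultures lay above the low dose cultures in all 4 sets, by 0.03 to 0.28 (exact permutation p = 0.0571), as did those of 11.7% of all genes tested. The cytosolic buffers (4 of 4) had a median of -0.07 with 2 above 0, led by S100b, which is also an astrocyte marker, at 1235 ± 573, 940.1 ± 518 and 823 ± 433 CPM.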

How the data were processed

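RNA of 12 cultures was sequenced by the authors from poly(A) libraries that do not keep strand, so reads of overlapping antisense genes cannot be told apart. Counts are per gene, so splice variants of one gene cannot be told apart either. Per the labels and the study's methods, the authors used STAR for alignment to rat build rn6 and featureCounts for counting. Whole-number counts of each gene were deposited, before any normalization. Multi-mapping settings are not given in the sources used here.

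The 7 genes were found by symbol, and all 7 matched the RefSeq table (assembly GRCr8), which was used only for Gene IDs because the builds differ. No coordinates or sequences are given. The genes, the related lists and the marker lists were chosen with earlier results of these data known.

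Counts were scaled by TMM in edgeR 4.0.16 (R 4.3.3, limma 3.58.1), and filterByExpr kept 12271 genes. The study's methods name RUVseq and edgeR but not the procedure, the number of factors or the test. Here RUVs with all kept genes gave 1 factor from the cultures of each dose, and its weight was 0.93 in culture G and between -0.22 and 0.15 in the others. All 12 cultures entered one quasi-likelihood fit with Benjamini-Hochberg adjustment over all genes, and a gene was called at an adjusted p under 0.05 and an absolute log2 fold change over 0.5. Every gene was also compared by an exact two-sided permutation test of the difference in mean log2(CPM + 1) over 70 arrangements. No overlap means that all 4 cultures of one dose lay above all 4 of the other. The labels do not say that the cultures of a dose came from separate preparations, so p-values measure the spread between these cultures, which may be technical.

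The text names the 7 genes, the highest gene of each related list, any list gene called or without overlap in all 4 letter sets, and for each of the 7 the 3 genes with the highest Pearson correlation over the 11 cultures other than G. For 3 of the related lists the named gene is not reported here. Alternatives were other numbers of factors, a replicate block by letter set, DESeq2 1.42.0, other scaling and filters, and each culture left out in turn. Fits without GHI, values without G, values minus the neuron score and ratios of genes were chosen after data were seen. On simulated counts for high dose vs. untreated (12212 genes) the fit recovered 167 of 198 genes simulated with a log2 difference of 2, with 7 false calls. The simulated counts held no letter sets and no culture like G. The fitted values of the 7 genes were all smaller than 2, the largest being 0.84. Recovery at differences of that size was not tested.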

Additional observations from a re-analysis of the deposited data

Results flagged for a closer look

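In 2 of the 21 groups of 4 cultures (7 genes, 3 doses), 1 culture lay far from the other 3 on the log2(CPM + 1) scale, where chance alone flags about 1 in 20 such groups. Both concern Slc8a3, the exchanger NCX3, and cultures of set ABC. At the low dose, culture B held 7.62 CPM against 20.8 to 24.4 CPM in H, N and Q, and its gap to the nearest culture was 0.856 of the whole range on the log2 scale and 0.782 on the CPM scale, of which only the first passed the critical value of Dixon's ratio. At the high dose, culture C held 7.05 CPM against 14.99 to 16.0 CPM in I, O and R, with a gap of 0.921 of the range on the log2 scale and 0.891 on the CPM scale. On the CPM scale, chosen after the data were seen, 2 groups also passed, this one and Atp2b4 at the low dose, at 0.846. Untreated culture A was similarly low at 6.90 CPM, but G at 6.55 CPM left no gap there. In the same 3 cultures the OPC score was 5.08 to 5.59, against 6.40 to 7.17 elsewhere, and its part in these values was not tested.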

How the results depend on the processing

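Every alternative planned was run. Among all genes, 0 were called in each comparison as reported. In high dose vs. untreated 1 gene was called with 2 factors, 39 with 4 factors, 2 with the likelihood ratio test of edgeR, 3 with DESeq2, 15 with the letter sets as a replicate block without G and 2 with that block without GHI. In high dose vs. low dose the counts were 1 with 2 factors, 113 with 4, 1 with DESeq2, 14 with the block without G and 5 with the block without GHI. The replicate block with all 12 cultures called 0 in each comparison and changed no call for the 7 genes, with 0.67 for Slc8a2 and 0.48 for Atp2b3 between the high and low doses, and the letters are not a stated pairing. Across genes, deviations from the dose means correlated at -0.19 to 0.89 in the 12 pairs within a set (10 over 0.1) and at a median of -0.22 in the 36 other pairs, and G correlated best with N (0.40), of another set. With each culture left out, by construction with fewer arrangements, genes without overlap numbered 66 to 417 in low dose vs. untreated, 122 to 605 in high dose vs. untreated and 220 to 615 in high dose vs. low dose (50, 84 and 146 with all). Of the 7 genes, the only call in 24 alternative fits was that of Slc8a2 in high dose vs. low dose with 4 factors, at 0.70. Its fitted value of 0.69 fell to 0.41 without high dose culture O and was 1.02 without low dose culture N.

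Signs changed as follows, none with a call on either side, and the cause was not tested. With 4 factors, low dose vs. untreated gave -0.22 for Slc8a2, -0.11 for Atp2b1 and -0.026 for Atp2b2, and high dose vs. untreated -0.013 for Atp2b2. With the block without G, low dose vs. untreated gave -0.37 for Slc8a2, -0.095 for Atp2b1 and -0.15 for Atp2b2, and high dose vs. untreated -0.14 for Atp2b2. Without GHI, with 1 factor or the block, low dose vs. untreated gave -0.46 or -0.40 for Slc8a2, -0.037 or -0.058 for Atp2b1 and -0.14 or -0.16 for Atp2b2. There, high dose vs. untreated gave -0.0040 or -0.027 for Atp2b1 and -0.13 or -0.15 for Atp2b2, and high dose vs. low dose -0.12 or -0.047 for Atp2b4. In high dose vs. untreated Slc8a3 was at 0.036 with 2 factors, and Atp2b4 at 0.034 without a factor and 0.063 with the block. With only the 8 cultures compared, Atp2b1 was at -0.0096 in low dose vs. untreated.

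With each culture left out, the fitted value in low dose vs. untreated ranged from -0.22 to 0.038 for Slc8a1, -0.37 to 0.85 for Slc8a2, -0.16 to 0.17 for Atp2b1, -0.056 to 0.88 for Atp2b2 and -0.81 to 0.37 for Atp2b4. In high dose vs. untreated it ranged from -0.42 to 0.23 for Slc8a3, -0.0059 to 0.90 for Atp2b2 and -0.68 to 0.54 for Atp2b4, and in high dose vs. low dose from -0.21 to 0.34 for Atp2b2 and -0.42 to 0.76 for Atp2b4. The difference in log2(CPM + 1) in low dose vs. untreated ranged from -0.17 to 0.029 for Slc8a1, -0.30 to 1.46 for Slc8a2, -0.10 to 0.24 for Atp2b1, -0.046 to 1.28 for Atp2b2 and -0.46 to 0.31 for Atp2b4. In high dose vs. untreated it ranged from -0.23 to 0.33 for Slc8a3, -0.038 to 1.28 for Atp2b2 and -0.35 to 0.44 for Atp2b4, and in high dose vs. low dose from -0.15 to 0.21 for Atp2b2 and -0.29 to 0.52 for Atp2b4. In low dose vs. untreated the fitted value of Slc8a2 was below 0 without G, without P or without N, and that of Atp2b2 without G or without N. DESeq2 size factors, library size alone and an offset of 0.1 changed no sign of the 7 genes. Culture G held 66 counts of Slc8a2, and Slc8a3 and Atp2b4 went down to 99 and 90 counts in a culture.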

Other observations

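A few genes of the related lists, named after their values were seen, showed patterns that the comparisons between doses do not describe. Atp2a1, the calcium pump of fast muscle stores, was at 28.8 CPM in high dose culture R and at 0.825 to 4.32 CPM in the other 11 cultures, and its log2 fold change of 2.23 in high dose vs. low dose (SE 1.05, adjusted p = 1.0 from edgeR) came with that culture. Atp2a3, a store pump of blood and endothelial cells, was at 99.0, 91.6 and 108 CPM in P, Q and R, at 2.83, 4.16 and 2.43 CPM in A, B and C, and at 16.97 to 26.6 CPM in the other 6 cultures. Slc8b1, the mitochondrial sodium-calcium exchanger, was at 42.3 CPM in untreated G and at 10.98 to 19.0 CPM elsewhere, so that it was highest in the culture where Slc8a2 was lowest. Within cultures, the log2 ratio of Slc8a2 to Slc8a1 was 0.78 to 1.07 at the high dose and -0.08 to 0.95 at the low dose, a difference of 0.50 (exact permutation p = 0.143, adjusted over 9 ratios and comparisons 0.6).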
